A study of Homo sapiens with 6 samples.

Results

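The 44 genes described here encode the proteins that drive entry into mitosis, run the spindle assembly checkpoint, build the kinetochore and separate the daughter cells. They were chosen by symbol from a fixed set of names matched to the Ensembl identifiers of the deposited tables, and where an identifier stood on several rows the row with most counts was taken. All 44 were found among the 39327 rows with a gene identifier, and all 44 were among the 12821 genes that passed the filter on low counts with 6 libraries. By role they comprised 9 genes of mitotic entry, 5 of the spindle checkpoint, 8 of the kinetochore and centromere, 6 of the chromosomal passenger complex and Aurora kinases, 4 of the anaphase-promoting complex and separase, 7 of the spindle and cytokinesis, 2 transcription factors and 3 genes of chromosome structure and proliferation.

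RNA sequencing compared wild-type CAL62 cells, an established line of anaplastic thyroid carcinoma (ATC), after 48 h with 50 nM erianin, a bibenzyl compound from Dendrobium orchids, or with its solvent DMSO. Each group held 3 libraries, and because all of them came from 1 cell line with no label that ties a library to a separate culture, the p-values measure the spread between these libraries, which may be technical. Reads counted on named genes ranged from 25776301 to 34107727 per library. Whether the mRNAs of the mitotic machinery differed between treated and control cells is the question addressed here.

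A cell enters mitosis when CDK1, bound to cyclin A or cyclin B, becomes active. WEE1 holds CDK1 inactive by phosphorylation and the CDC25 phosphatases remove that phosphate. Kinetochores that are not attached to microtubules then load the checkpoint proteins MAD2 and BUBR1, which hold back CDC20 and so the anaphase-promoting complex, a ubiquitin ligase. Once the kinetochores are attached, the complex marks securin and cyclin B for destruction, separase cuts cohesin and the chromosomes part. Compounds that disturb microtubules leave this checkpoint on. Most of these genes are transcribed late in the cell cycle through the CHR, a promoter element bound by the MuvB complex with B-MYB and FOXM1, and through boxes bound by NF-Y.

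Promoter windows from RefSeq on GRCh38.p14, running from 250 bases before to 50 bases after the start of transcription, were matched by symbol for 35 of the 44 genes. WEE1, TPX2, BUB3, FOXM1, UBE2C, TTK, PBK, AURKA and BIRC5 had no window. The windows below are shown for MAD2L1 and CDC25A, which rose with all 6 libraries, for HMMR, with the largest increase without DMSO replicate 3, for SPC25, called lower when a trend on GC content was removed, and for CDC20, with the highest mean level per gene length of the 44 over the 6 libraries. They are printed 5′ to 3′ on the strand of the gene, and the capitals mark the CHR (TTTGAA) and the NF-Y box (CCAAT), each on either strand. In HMMR a pair of NF-Y boxes on opposite strands overlap and a pair of CHR matches adjoin.
MAD2L1 (chr4:120066799-120067098, minus strand): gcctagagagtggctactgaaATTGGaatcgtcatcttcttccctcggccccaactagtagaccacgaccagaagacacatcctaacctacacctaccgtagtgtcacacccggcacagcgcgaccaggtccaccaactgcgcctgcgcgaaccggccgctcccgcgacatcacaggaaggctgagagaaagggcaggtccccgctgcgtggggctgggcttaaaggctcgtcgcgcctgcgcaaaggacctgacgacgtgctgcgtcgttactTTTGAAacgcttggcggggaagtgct
CDC25A (chr3:48188368-48188667, minus strand): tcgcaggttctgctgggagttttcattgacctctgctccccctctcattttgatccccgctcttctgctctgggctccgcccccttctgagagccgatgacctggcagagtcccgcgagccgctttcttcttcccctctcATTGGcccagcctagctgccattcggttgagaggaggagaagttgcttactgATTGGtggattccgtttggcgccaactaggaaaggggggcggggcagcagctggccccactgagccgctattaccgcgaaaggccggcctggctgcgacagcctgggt
HMMR (chr5:163460382-163460681, plus strand): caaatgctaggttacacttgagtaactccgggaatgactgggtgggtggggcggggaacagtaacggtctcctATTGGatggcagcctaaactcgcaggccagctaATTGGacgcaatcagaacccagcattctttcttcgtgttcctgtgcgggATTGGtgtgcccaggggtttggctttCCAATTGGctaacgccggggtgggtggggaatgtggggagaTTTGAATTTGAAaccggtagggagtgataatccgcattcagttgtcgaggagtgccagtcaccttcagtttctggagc
SPC25 (chr2:168890381-168890680, minus strand): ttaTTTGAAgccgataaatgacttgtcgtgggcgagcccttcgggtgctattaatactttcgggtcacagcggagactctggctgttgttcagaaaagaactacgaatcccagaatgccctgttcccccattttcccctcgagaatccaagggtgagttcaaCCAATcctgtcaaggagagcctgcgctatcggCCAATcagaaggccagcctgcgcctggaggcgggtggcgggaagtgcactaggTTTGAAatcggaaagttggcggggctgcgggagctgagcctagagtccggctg
CDC20 (chr1:43358731-43359030, plus strand): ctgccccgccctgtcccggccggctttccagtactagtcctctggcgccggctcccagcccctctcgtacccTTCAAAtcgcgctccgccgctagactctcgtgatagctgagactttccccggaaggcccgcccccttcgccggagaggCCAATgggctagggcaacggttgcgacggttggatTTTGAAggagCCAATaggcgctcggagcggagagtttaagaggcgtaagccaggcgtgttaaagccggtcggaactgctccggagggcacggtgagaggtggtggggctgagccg

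The CHR was present in 22 of the 35 windows (62.9%), against 15.4% of all 27305 RefSeq windows of the same length and 9.33% of the 10128 windows of tested genes. The NF-Y box was present in 26 of the 35 (74.3%), against 35.7% of all windows. Both stood together in 18 of the 35 (51.4%), against 6.08% of all windows, and 5 of the 35 held neither. The 31 CHR matches had a median position of -28 bases from the start, counted as 0, and in 18 genes a match began within 50 bases of it. The 61 NF-Y boxes had a median position of -75. Of the genes shown, MAD2L1 held its CHR 24 bases after the start and 1 NF-Y box at -229, whereas CDC25A held no CHR and 2 NF-Y boxes. A CHR variant, TTTAAA, was found in 9 of the 35 windows (25.7%), against 12.3% of all. These matches are letters in a window and were not tested as binding sites. The 13 genes without TTTGAA include CCNB1, PTTG1 and CENPE, which held TTTAAA, and BUB1, which held a variant with a C. With all 6 libraries the median log2 fold change of erianin over DMSO was 0.03 over the 22 genes with a CHR and 0.05 over the 13 without. These medians were 0.23 and 0.21 without DMSO replicate 3, and the log2 departure of that library from DMSO replicates 1 and 2 had a median of 0.55 in the genes with a CHR and 0.25 in those without.

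**Figure D1:**
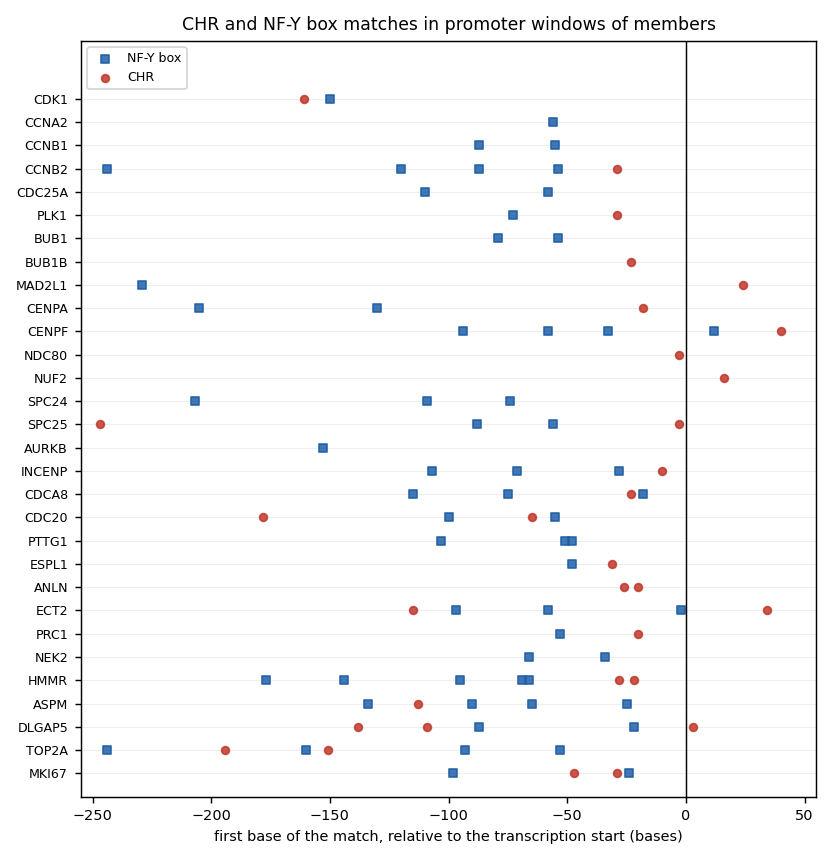
Position of each CHR match (circles) and NF-Y box (squares) in the promoter windows of the 30 genes that held at least 1 of them, in bases from the transcription start (vertical line). The median position is -75 bases for the NF-Y boxes and -28 bases for the CHR matches.

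The third DMSO library stood apart from the other libraries, and so it did in the mitotic genes. CPM here is the count scaled by library size and TMM factor. In log2(CPM + 0.5) over all tested genes, DMSO replicates 1 and 2 lay 23.2 apart by Euclidean distance, the erianin libraries at most 20.6 apart, and DMSO replicate 3 lay 52.5 and 52.8 from its group. In the 44 mitotic genes, DMSO replicate 3 exceeded the mean of DMSO replicates 1 and 2 in 36, with a median log2 difference of 0.32. It exceeded that mean by over 0.5 in 18 of the 44 (40.9%), against 15.0% of all tested genes, and lay under it by more than 0.5 in 1, BIRC5. MKI67, whose product Ki-67 coats mitotic chromosomes, had 118, 124 and 291 CPM in DMSO replicates 1, 2 and 3 and 157, 137 and 139 CPM in the erianin replicates. CENPF, an outer kinetochore protein, had 15.1, 15.7 and 38.0 CPM in DMSO replicates 1, 2 and 3 and 19.7, 18.5 and 18.3 CPM in the erianin replicates; it is given in every library because of this spread. In both genes DMSO replicate 3 was above all other libraries and the erianin libraries were above DMSO replicates 1 and 2.

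The departure of DMSO replicate 3 followed base composition in the mitotic genes as it did elsewhere. Across the 44 genes, Pearson's r between its log2 departure and the GC content of the longest transcript was -0.53, and across the 12686 tested genes with a GC value it was -0.52. With the log10 length of that transcript r was 0.39 and 0.34. The genes share the libraries and are not independent replicates. The mitotic genes had a median GC content of 43.2%, against 48.7% over the tested genes. The labels give no batch, extraction date or sequencing run, so what set DMSO replicate 3 apart was not tested. Results are given with and without it, and with each library's trend on GC content removed as an offset. The offset was fitted to every library, the erianin ones included. It therefore also removes a difference between the groups that follows GC content, and whether such a difference is technical was not tested.

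**Figure D2:**
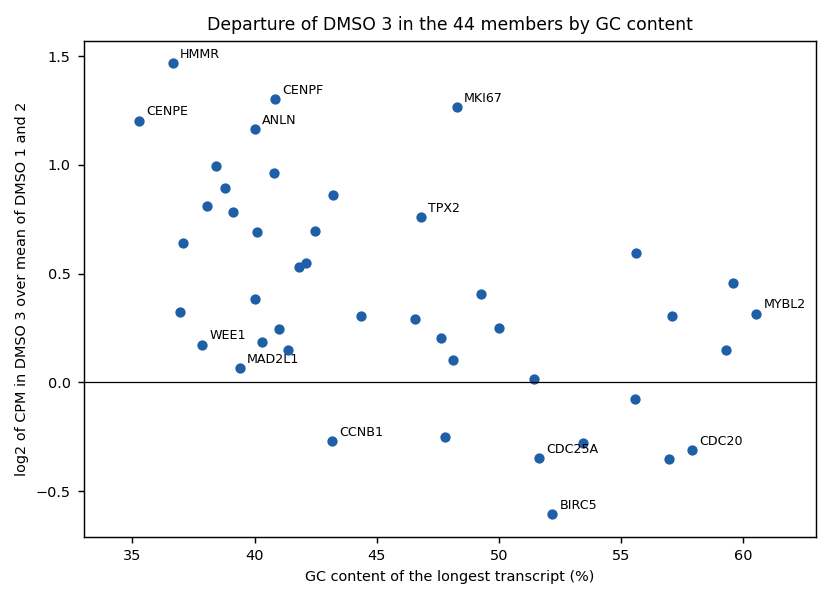
Log2 of CPM in DMSO replicate 3 over the mean of DMSO replicates 1 and 2 (vertical axis) against the GC content of the longest transcript in percent (horizontal axis), 1 point per mitotic gene. Of the 44 points, 36 lie above 0, and HMMR, CENPF, MKI67, CENPE and ANLN lie above 1.

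Most of the mitotic mRNAs were abundant in CAL62 cells. Levels between genes are compared in TPM, which divides each count by gene length and scales it to the library. The lengths behind the deposited TPM are not given in the sources used here, so the order of genes is uncertain to that extent. In DMSO replicate 1, CDC20 had 211 CPM and 275 TPM, and UBE2C 216 CPM and 237 TPM. Their longest GENCODE 29 transcripts have 1777 and 914 bases. Of the 44 genes, 36 had a mean over 10 TPM across the 6 libraries and 7 a mean over 100 TPM. CDC20, the activator of the anaphase-promoting complex, came first at 303 ± 60.2 TPM (SD, n = 6). TPX2, which activates Aurora A on the spindle, followed at 281 ± 54.4 TPM and UBE2C, the ubiquitin-conjugating enzyme of the anaphase-promoting complex, at 251 ± 10.2 TPM over the 6 libraries. Their order depended on the library. In the erianin libraries CDC20 (342 to 359 TPM), TPX2 (305 to 320) and UBE2C (249 to 263) did not overlap, whereas in DMSO replicate 3 TPX2 had 328, UBE2C 262 and CDC20 205 TPM. Next came CCNB1 at 144 ± 22.9, MYBL2 at 129.6 ± 17.3, PTTG1 at 128 ± 21.0 and BUB3 at 112 ± 11.1 TPM. CCNB1 was the highest of these 4 in every library but DMSO replicate 3, and MYBL2 and PTTG1 overlapped in both groups. At the low end lay NUF2 at 2.91 ± 0.679, CENPE at 0.632 ± 0.201 and PRC1 at 0.290 ± 0.0657 TPM. PRC1, which bundles the central spindle, had between 16 and 40 reads per library and shares exon bases with AC068831.7 on the same strand and with PRC1-AS1 on the opposite one, so that its place in this order is uncertain. In GENCODE 29, 13 of the 44 genes share exon bases with another gene, 10 of them with a gene on the opposite strand, and their counts are uncertain to that extent.

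With all 6 libraries, 2 of the 44 genes were called higher with erianin and 0 were called lower. A gene was called when edgeR's quasi-likelihood test gave it an adjusted p (Benjamini-Hochberg) under 0.05 and a log2 fold change beyond 0.5 either way. The called genes were MAD2L1 and CDC25A. Over all tested genes 5.37% were called higher and 3.36% lower, so that 2 of 44 was near the background. By adjusted p alone, 3 of the 44 were higher (MAD2L1, CDC25A and WEE1) and 0 lower, against 7.22% and 7.69% of tested genes. At an unadjusted p under 0.05, edgeR placed 6 genes higher and 5 lower, against 15.3% and 15.6% of tested genes. DESeq2 called 2 higher and 1 lower, the latter SPC25. The median log2 fold change of the 44 was 0.07, within a range from -0.50 to 0.58, against 0.00 over all tested genes. Since the libraries are bulk RNA, a different number of cells in mitosis and a different amount of RNA per cell cannot be told apart.

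In 7 of the 44 genes every erianin library was above every DMSO library, in 7 every erianin library was below, and in 30 the groups overlapped. Over all tested genes the shares without overlap were 19.5% higher and 19.3% lower. DMSO replicate 3 was above all 3 erianin libraries in 30 of the 44 genes, below all 3 in 10 and among them in 4. Against DMSO replicates 1 and 2 alone, the erianin libraries were all higher in 27 genes and all lower in 7, against 35.2% and 33.8% of all tested genes.

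**Figure D3:**
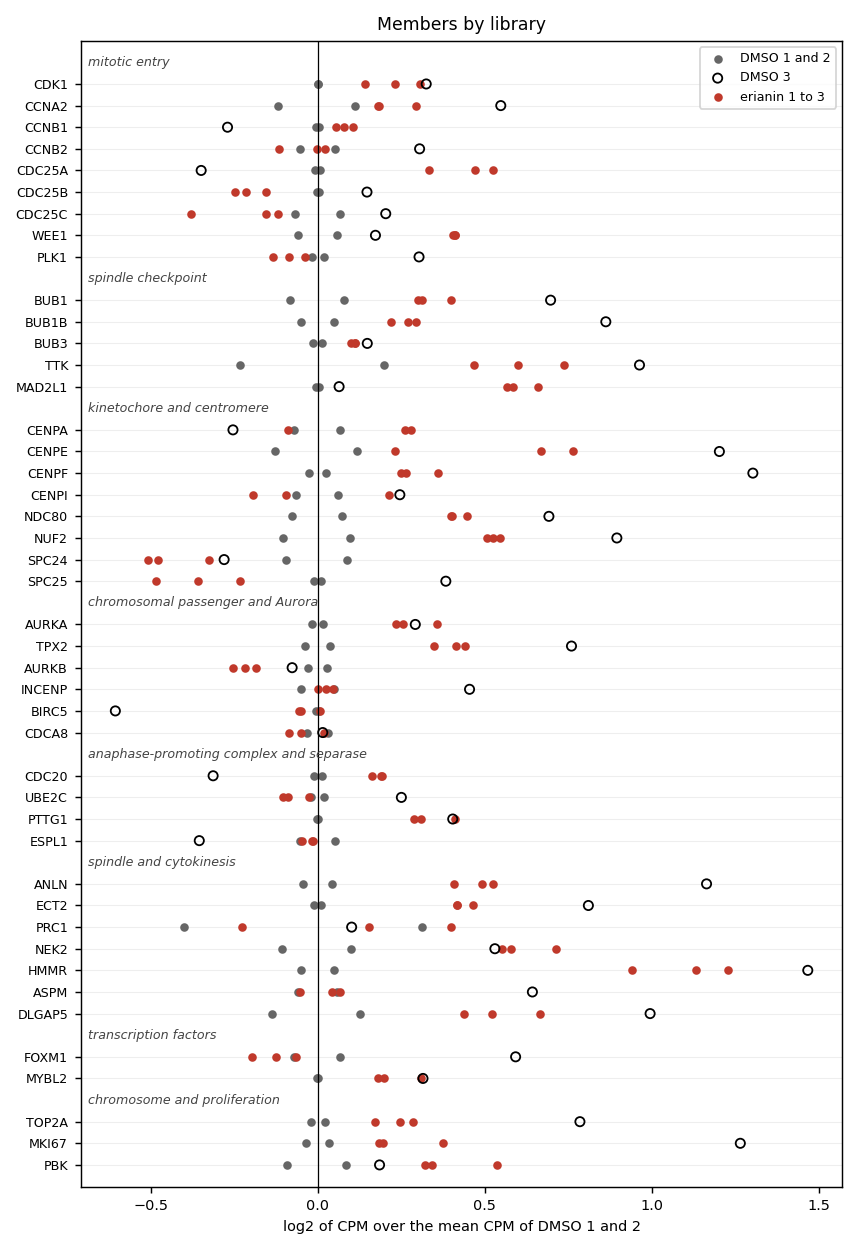
Log2 of the CPM of each library over the mean CPM of DMSO replicates 1 and 2, for the 44 genes grouped by role. Grey points are DMSO replicates 1 and 2, open circles DMSO replicate 3 and red points the 3 erianin libraries. The open circles lie to the right of all red points in 30 genes.

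Of the 9 genes of mitotic entry, 1 was called higher, 0 lower, and the median log2 fold change was 0.01, or 0.08 without DMSO replicate 3. CDC25A, the CDC25 phosphatase that also acts at the start of S phase (ENSG00000164045, GENCODE 29 on GRCh38, chr3:48157146-48188402), had 13.7, 13.8 and 10.8 CPM in DMSO replicates 1, 2 and 3 and 19.8, 19.0 and 17.3 CPM in the erianin replicates. The groups did not overlap and DMSO replicate 3 was the lowest of the 6. The log2 fold change was 0.55 (SE 0.13, adjusted p = 0.0295 from edgeR), and 0.52 (SE 0.10, adjusted p = 0.0109 from edgeR) with the GC offset. The call depended on each library: without DMSO replicate 3 the log2 fold change was 0.44, under the threshold, and without any other library the adjusted p was between 0.0579 and 0.135 from edgeR. WEE1, the kinase that opposes the CDC25 phosphatases, had 31.4, 34.02 and 36.9 CPM in DMSO replicates 1, 2 and 3 and 43.5, 43.5 and 43.3 CPM in the erianin replicates. The erianin libraries were close to each other and above all 3 DMSO libraries, with a log2 fold change of 0.35 (SE 0.09, adjusted p = 0.0400 from edgeR); with the GC offset it was 0.16 (SE 0.09, adjusted p = 0.238 from edgeR), and 0.08 (SE 0.07, adjusted p = 0.331 from edgeR) with the offset and without DMSO replicate 3.

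CCNB1, cyclin B1, had 169.5, 169 and 140.2 CPM in DMSO replicates 1, 2 and 3 and 179, 182 and 176 CPM in the erianin replicates. PLK1, the polo-like kinase that activates CDC25C and cyclin B1, had 156, 160.2 and 195 CPM in DMSO replicates 1, 2 and 3 and 149, 154 and 144 CPM in the erianin replicates. In cyclin B1 every erianin library was above every DMSO library, in PLK1 below, and neither difference passed the test. The log2 fold change was 0.16 (SE 0.09, adjusted p = 0.255 from edgeR) for CCNB1 and -0.19 (SE 0.10, adjusted p = 0.226 from edgeR) for PLK1. That of CCNB2, cyclin B2, was -0.14 (SE 0.11, adjusted p = 0.433 from edgeR), with overlapping groups. With the GC offset and without DMSO replicate 3, CCNB1 lay on the other side of 0 at -0.13 (SE 0.04, adjusted p = 0.0142 from edgeR), and CCNB2 was lower at -0.20 (SE 0.06, adjusted p = 0.00441 from edgeR). In that fit 33.3% of all tested genes were lower and 15.9% higher at an adjusted p under 0.05 from edgeR. Small negative values of single genes in it, here and below, are to be read beside those shares. CDK1 and CCNA2, the mitotic kinase and cyclin A2, were higher at an adjusted p under 0.05 without DMSO replicate 3, by log2 fold changes of 0.22 and 0.21, which became -0.11 and -0.02 when the GC offset was added. CDC25B and CDC25C, the phosphatases that act at the onset of mitosis, lay on the other side from CDC25A: without DMSO replicate 3 they were lower, by log2 fold changes of -0.21 (SE 0.04, adjusted p = 8.41e-05 from edgeR) and -0.21 (SE 0.08, adjusted p = 0.0278 from edgeR). The log2 ratio of CDC25A to CDC25B in TPM came to -3.17, -3.16 and -3.66 across DMSO replicates 1, 2 and 3, and to -2.43, -2.54 and -2.59 across the erianin replicates. It was singled out after the values were seen and is given with no test.

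Of the 5 spindle checkpoint genes, 1 was called higher, 0 lower, and the median log2 fold change was 0.07, or 0.33 without DMSO replicate 3. MAD2L1 encodes MAD2, the protein that binds CDC20 at unattached kinetochores (ENSG00000164109, chr4:120055608-120067074). It had 39.0, 38.7 and 40.6 CPM in DMSO replicates 1, 2 and 3 and 58.2, 57.5 and 61.4 CPM in the erianin replicates, or 39.4 ± 1.03 against 59.0 ± 2.04 CPM (SD, n = 3 each). The DMSO libraries were close together, DMSO replicate 3 included, and the groups lay far apart relative to that spread. The log2 fold change was 0.58 (SE 0.08, adjusted p = 0.00504 from edgeR), and MAD2L1 was called in 6 of 6 fits that each left out 1 library, with log2 fold changes from 0.55 to 0.60. Under the GC offset it was 0.40 (SE 0.09, adjusted p = 0.0195 from edgeR), past the p threshold and under the fold threshold. The antisense gene AC108866.1 shares exon bases with MAD2L1 on the other strand, and since the strand setting of the counting is not given in the sources used here, reads of the pair cannot be told apart.

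BUB3, which carries BUB1 and BUBR1 to the kinetochore, had 192, 196 and 215 CPM in DMSO replicates 1, 2 and 3 and 209.8, 208 and 210.2 CPM in the erianin replicates. TTK, the kinase MPS1 that starts checkpoint signalling, had 7.39, 5.48 and 12.6 CPM in DMSO replicates 1, 2 and 3 and 8.90, 10.7 and 9.76 CPM in the erianin replicates. The 6 libraries of BUB3 lay within a narrow range, whereas those of TTK spread from 5.48 to 12.6 CPM with DMSO replicate 3 on top. Neither passed with all 6 libraries. Without DMSO replicate 3, all 5 checkpoint genes were higher at an adjusted p under 0.05, and TTK and MAD2L1 were called, with log2 fold changes of 0.62 (SE 0.13, adjusted p = 0.000182 from edgeR) and 0.60 (SE 0.06, adjusted p = 4.25e-10 from edgeR). BUB1, the checkpoint kinase, and BUB1B, which encodes BUBR1, had log2 fold changes of 0.33 and 0.26. In that fit 27.5% of all tested genes were higher at an adjusted p under 0.05 from edgeR and 11.4% were called higher. DMSO replicate 3, left out of it, lay above all erianin libraries in BUB1, BUB1B, BUB3 and TTK. Adding the GC offset, TTK and MAD2L1 remained higher at an adjusted p under 0.05 (log2 fold changes of 0.36 and 0.31), BUB3 was lower at a log2 fold change of -0.15, and BUB1 and BUB1B did not pass.

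Of the 8 kinetochore and centromere genes, 0 were called in either direction with all 6 libraries, 4 lay above 0 and 4 below, and the median log2 fold change was -0.03. Without DMSO replicate 3 that median turned to 0.22, with 5 genes above 0 and 3 below. The Ndc80 complex, which holds microtubules at the kinetochore, has 4 subunits, all among the 44 genes, and they lay on opposite sides. NDC80 had 9.03, 8.13 and 13.9 CPM in DMSO replicates 1, 2 and 3 and 11.3, 11.7 and 11.3 CPM in the erianin replicates. NUF2, its partner at the microtubule end, had 4.39, 3.82 and 7.64 CPM in DMSO replicates 1, 2 and 3 and 6.002, 5.84 and 5.91 CPM in the erianin replicates. SPC24, a subunit at the chromosome end, had 29.6, 26.1 and 22.9 CPM in DMSO replicates 1, 2 and 3 and 22.2, 19.98 and 19.6 CPM in the erianin replicates. In NDC80 and NUF2 DMSO replicate 3 was the highest library, whereas in SPC24 every erianin library was below every DMSO library. SPC25, the partner of SPC24 and given in every library because of its calls under other settings, had 7.55, 7.46 and 9.79 CPM in DMSO replicates 1, 2 and 3 and 5.86, 6.38 and 5.37 CPM in the erianin replicates, again with no overlap.

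The log2 fold changes of SPC24 and SPC25 with all 6 libraries were -0.35 (SE 0.12, adjusted p = 0.0982 from edgeR) and -0.50 (SE 0.15, adjusted p = 0.0699 from edgeR), short of the threshold. Without DMSO replicate 3 they were -0.44 (SE 0.08, adjusted p = 2.78e-05 from edgeR) and -0.36 (SE 0.13, adjusted p = 0.0209 from edgeR), and those of NDC80 and NUF2 were 0.42 (SE 0.11, adjusted p = 0.00159 from edgeR) and 0.53 (SE 0.15, adjusted p = 0.00316 from edgeR), of which NUF2 was called. NDC80 and NUF2 were at 0.14 and 0.22 once the GC offset was added to that fit and no longer passed, while SPC24 and SPC25 did at -0.42 and -0.64. Under the GC offset with 6 libraries SPC25 was called lower at -0.65 (SE 0.11, adjusted p = 0.00681 from edgeR) and SPC24 was at -0.37 (SE 0.10, adjusted p = 0.0295 from edgeR), while NDC80 and NUF2 were at 0.00 and 0.02 and did not pass. The mean log2 TPM of NDC80 and NUF2 minus that of SPC24 and SPC25 came to -1.94, -2.02 and -1.24 across DMSO replicates 1, 2 and 3, and to -1.16, -1.14 and -1.02 across the erianin libraries. DMSO replicate 3 lay near the erianin libraries on this scale, and the contrast, chosen after the values were seen, is given with no test.

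CENPE, the kinesin that moves chromosomes to the spindle equator, had 2.30, 1.94 and 4.88 CPM in DMSO replicates 1, 2 and 3 and 3.60, 2.49 and 3.37 CPM in the erianin replicates, counts of 56 to 152 reads per library. Without DMSO replicate 3 it was called higher at a log2 fold change of 0.58 (SE 0.22, adjusted p = 0.0243 from edgeR), and with the GC offset added this was 0.22 (SE 0.22, adjusted p = 0.412 from edgeR). For CENPF the log2 fold change was -0.28 (SE 0.34, adjusted p = 0.621 from edgeR) with all 6 libraries and 0.29 (SE 0.09, adjusted p = 0.00603 from edgeR) without DMSO replicate 3, so that its sign turned with that library; with the offset added it was 0.02 (SE 0.09, adjusted p = 0.843 from edgeR) and did not pass. CENPA, the centromeric histone, and CENPI, an inner kinetochore protein, passed in neither fit, with log2 fold changes of 0.24 and -0.10 over 6 libraries.

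Of the 6 chromosomal passenger and Aurora genes, 0 were called, 3 lay above 0 and 3 below, and the median log2 fold change was 0.03, or -0.01 without DMSO replicate 3. TPX2 had 255, 242 and 421 CPM in DMSO replicates 1, 2 and 3 and 337, 331 and 316 CPM in the erianin replicates. CDCA8, which encodes borealin of the passenger complex, had 61.8, 64.6 and 63.9 CPM in DMSO replicates 1, 2 and 3 and 61.1, 64.0 and 59.5 CPM in the erianin replicates. The 6 libraries of CDCA8 lay within a narrow range, whereas DMSO replicate 3 of TPX2 was above all others. AURKA and AURKB, the Aurora kinases of the spindle poles and of the passenger complex, lay on opposite sides of 0 without DMSO replicate 3, with log2 fold changes of 0.28 (SE 0.05, adjusted p = 3.64e-05 from edgeR) and -0.22 (SE 0.04, adjusted p = 7.44e-05 from edgeR). Both differences remained at an adjusted p under 0.05 with the GC offset added, at 0.18 and -0.18. The log2 fold change of TPX2 was 0.10 (SE 0.20, adjusted p = 0.783 from edgeR) with 6 libraries and 0.40 (SE 0.04, adjusted p = 1.73e-09 from edgeR) without DMSO replicate 3. BIRC5, which encodes survivin, and INCENP, the scaffold of the passenger complex, did not pass with or without that library, at log2 fold changes of 0.14 and -0.14 over 6 libraries.

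Of the 4 genes around the anaphase-promoting complex, 0 were called and the median log2 fold change was 0.14, or 0.07 without DMSO replicate 3. CDC20 had 211, 215 and 171 CPM in DMSO replicates 1, 2 and 3 and 243, 238 and 243 CPM in the erianin replicates. UBE2C had 216, 221 and 260.0 CPM in DMSO replicates 1, 2 and 3 and 215, 206 and 203 CPM in the erianin replicates. In CDC20 every erianin library was above every DMSO library and DMSO replicate 3 was the lowest, whereas in UBE2C every erianin library was below. CDC20 had a log2 fold change of 0.28 (SE 0.10, adjusted p = 0.0947 from edgeR) with all 6 libraries, 0.18 (SE 0.04, adjusted p = 0.000447 from edgeR) without DMSO replicate 3 and 0.27 (SE 0.06, adjusted p = 0.0149 from edgeR) with the GC offset and 6 libraries, in each fit under the fold threshold. That of UBE2C was -0.16 (SE 0.09, adjusted p = 0.263 from edgeR) with all 6 and -0.11 (SE 0.04, adjusted p = 0.0239 from edgeR) with the GC offset and without DMSO replicate 3. PTTG1 encodes securin and has near-identical copies elsewhere in the genome that could share its reads; its log2 fold change was 0.19 (SE 0.12, adjusted p = 0.332 from edgeR) with all 6 libraries and 0.33 (SE 0.05, adjusted p = 6.71e-07 from edgeR) without DMSO replicate 3. ESPL1, which encodes separase, passed in neither fit, at 0.08 and -0.03.

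Of the 7 spindle and cytokinesis genes, 0 were called with all 6 libraries and 3 without DMSO replicate 3, and the median log2 fold changes were 0.11 and 0.47. Over all tested genes 5.37% were called higher with all 6 libraries and 11.4% without DMSO replicate 3. HMMR, a spindle assembly factor and hyaluronan receptor (ENSG00000072571, chr5:163460203-163491945), had 3.86, 4.13 and 11.04 CPM in DMSO replicates 1, 2 and 3 and 8.75, 7.67 and 9.36 CPM in the erianin replicates. NEK2, the kinase that parts the centrosomes, had 13.8, 15.9 and 21.4 CPM in DMSO replicates 1, 2 and 3 and 24.4, 21.8 and 22.2 CPM in the erianin replicates. DLGAP5, also HURP, which stabilises kinetochore fibres, had 20.5, 17.1 and 37.4 CPM in DMSO replicates 1, 2 and 3 and 27.0, 25.4 and 29.8 CPM in the erianin replicates. In HMMR and DLGAP5 DMSO replicate 3 was above all erianin libraries and DMSO replicates 1 and 2 below them, whereas in NEK2 all 3 DMSO libraries were below.

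For HMMR the log2 fold change was 0.43 (SE 0.38, adjusted p = 0.496 from edgeR) with all 6 libraries and 1.10 (SE 0.14, adjusted p = 6.54e-08 from edgeR) without DMSO replicate 3, a 2.14-fold difference and the largest change of the 44 in that fit; with the GC offset added it was 0.75 (SE 0.14, adjusted p = 2.11e-05 from edgeR), still called. That of NEK2 was 0.42 (SE 0.17, adjusted p = 0.138 from edgeR) with 6 libraries, 0.61 (SE 0.09, adjusted p = 6.79e-07 from edgeR) without DMSO replicate 3 and 0.37 (SE 0.09, adjusted p = 0.000542 from edgeR) with the offset added. That of DLGAP5 was 0.55 (SE 0.09, adjusted p = 2.48e-06 from edgeR) without DMSO replicate 3 and 0.24 (SE 0.08, adjusted p = 0.0175 from edgeR) with the offset added. ANLN and ECT2, which organise the contractile ring, were higher without DMSO replicate 3, by log2 fold changes of 0.47 and 0.43, both with an adjusted p under 0.05. With the offset added these became 0.19 (SE 0.07, adjusted p = 0.0324 from edgeR) and 0.11 (SE 0.06, adjusted p = 0.134 from edgeR), so that ECT2 no longer passed. PRC1 passed in neither fit. ASPM, a spindle pole protein, had a log2 fold change of 0.01 (SE 0.10, adjusted p = 0.934 from edgeR) in that fit and -0.32 (SE 0.10, adjusted p = 0.00685 from edgeR) with the offset added. HMMR shares exon bases with HMMR-AS1 and ANLN with KIAA0895, both on the opposite strand.

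The transcription factors of the late cell cycle were not called. MYBL2, which encodes B-MYB, had 97.0, 97.2 and 121 CPM in DMSO replicates 1, 2 and 3 and 120.3, 110.1 and 111 CPM in the erianin replicates. FOXM1 had 116, 128 and 184 CPM in DMSO replicates 1, 2 and 3 and 112, 117 and 106 CPM in the erianin replicates. DMSO replicate 3 was above all 5 other libraries in both genes. Without that library the log2 fold change of MYBL2 was 0.23 (SE 0.05, adjusted p = 0.000193 from edgeR) and that of FOXM1 -0.13 (SE 0.05, adjusted p = 0.0229 from edgeR), on opposite sides of 0. With the GC offset added MYBL2 was at 0.31 (SE 0.05, adjusted p = 1.11e-06 from edgeR) and FOXM1, at -0.09 (SE 0.05, adjusted p = 0.117 from edgeR), no longer passed. FOXM1 shares exon bases with ITFG2 on the opposite strand. TOP2A, the topoisomerase that untangles sister chromatids, had 59.1, 60.8 and 103 CPM in DMSO replicates 1, 2 and 3 and 73.1, 67.6 and 71.1 CPM in the erianin replicates. The log2 fold change of MKI67 was -0.30 (SE 0.33, adjusted p = 0.583 from edgeR) with 6 libraries and 0.25 (SE 0.05, adjusted p = 0.000113 from edgeR) without DMSO replicate 3. That of TOP2A was -0.08 (SE 0.21, adjusted p = 0.844 from edgeR) and 0.23 (SE 0.05, adjusted p = 0.000623 from edgeR), so that both turned in sign with that library. With the offset added MKI67 was at 0.18 (SE 0.05, adjusted p = 0.00261 from edgeR), whereas TOP2A was at -0.07 (SE 0.06, adjusted p = 0.305 from edgeR), on the other side of 0, and did not pass. PBK, a mitotic kinase, had a log2 fold change of 0.34 (SE 0.12, adjusted p = 0.107 from edgeR) with 6 libraries and 0.39 (SE 0.11, adjusted p = 0.00204 from edgeR) without that library. Under the GC offset these were 0.18 (SE 0.11, adjusted p = 0.280 from edgeR) and 0.12 (SE 0.10, adjusted p = 0.358 from edgeR), and neither passed.

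**Figure D4:**
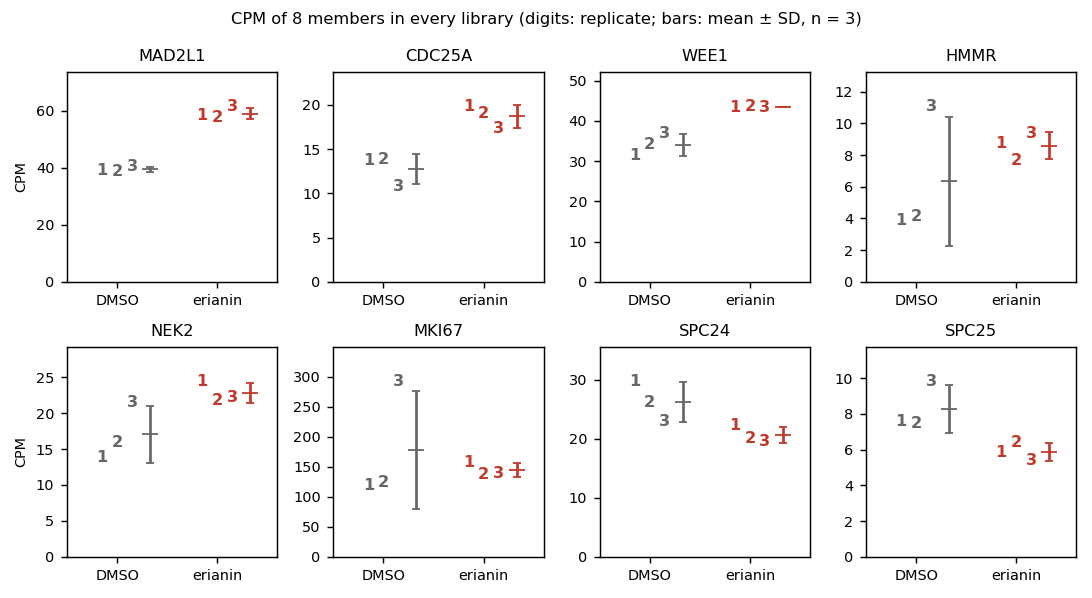
CPM (vertical axes, from 0) of 8 genes in the DMSO and erianin libraries. Digits mark the replicate and bars the mean ± SD (n = 3). MAD2L1, CDC25A and WEE1 are higher in the 3 erianin libraries, SPC24 and SPC25 lower, and in HMMR and MKI67 DMSO replicate 3 lies above all other libraries.

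Without DMSO replicate 3, 7 of the 44 genes were called higher with erianin and 0 lower. The 7 were MAD2L1, TTK, CENPE, NUF2, NEK2, HMMR and DLGAP5, and over the 13053 genes tested in that fit 11.4% were called higher and 6.11% lower. DMSO replicate 3 was above all erianin libraries in 5 of the 7 and below them in 2, MAD2L1 and NEK2. At an adjusted p under 0.05, 26 genes were higher and 6 lower (59.1% and 13.6%), against 27.5% and 27.7% of all tested genes; at an unadjusted p under 0.05 edgeR placed 26 higher and 7 lower, against 29.8% and 29.5%. The 6 lower genes were CDC25B, CDC25C, SPC24, SPC25, AURKB and FOXM1. In 18 of the 26 higher genes DMSO replicate 3 lay above all erianin libraries. The median log2 fold change was 0.22, against 0.02 over all tested genes. The biological coefficient of variation was 0.139 with 6 libraries and 0.0421 without DMSO replicate 3. Over the 44 genes the sign of the fold change differed between the fits in 9.

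With the GC offset and all 6 libraries, 1 of the 44 genes was called higher, CDC25A, and 1 lower, SPC25. Over all tested genes 5.19% were called higher and 5.22% lower. At an adjusted p under 0.05, 3 were higher (CDC25A, MAD2L1 and CDC20) and 3 lower (SPC24, SPC25 and ASPM), against 7.25% and 14.6%. With the GC offset and without DMSO replicate 3, HMMR was called higher and SPC25 lower, against 6.93% and 6.16% of tested genes, and 13 genes were higher and 10 lower at an adjusted p under 0.05, against 15.9% and 33.3%. The median log2 fold change in that fit was 0.07, against -0.07 over all tested genes. In the fits without DMSO replicate 3, with the offset and without it, 13 genes were higher in both, 5 were lower in both, and BUB3 was higher in one and lower in the other. CDC25A and MAD2L1 were higher at an adjusted p under 0.05 in all 4 of these fits, and SPC24 and SPC25 lower in all but the 6-library fit without the offset. The erianin libraries varied little in these genes, with a median coefficient of variation of 4.23% over the 44 against 16.4% in DMSO; over all tested genes these were 5.25% and 15.3%.

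**Figure D5:**
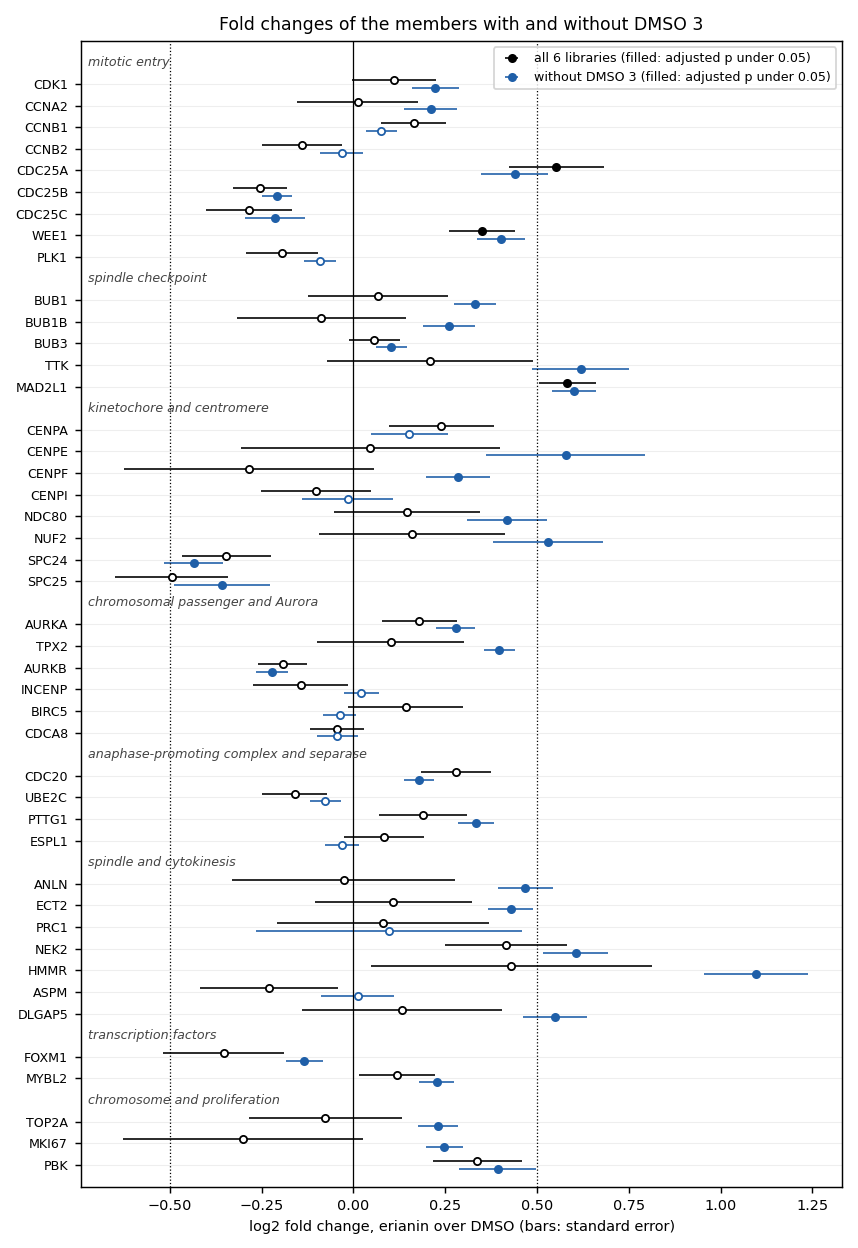
Log2 fold change of erianin over DMSO for the 44 genes by role, with all 6 libraries (black) and without DMSO replicate 3 (blue). Bars are standard errors, filled points have an adjusted p under 0.05 from edgeR and dotted lines mark the fold threshold. There are 3 filled black points and 32 filled blue points.

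The rest of the mitotic machinery was read from a list of 90 further genes of kinetochore, checkpoint, anaphase-promoting complex, condensin, spindle and entry control, of which 86 could be tested. With all 6 libraries 1 was called higher and 1 lower, against 5.37% and 3.36% of all tested genes. ANAPC10, a subunit of the anaphase-promoting complex that helps bind substrates, had 6.57, 5.85 and 6.45 CPM in DMSO replicates 1, 2 and 3 and 8.70, 8.73 and 9.42 CPM in the erianin replicates, a log2 fold change of 0.51 (SE 0.12, adjusted p = 0.0266 from edgeR). CDCA3, a cell division cycle gene also known as TOME-1, had 38.6, 40.4 and 44.7 CPM in DMSO replicates 1, 2 and 3 and 29.8, 28.7 and 27.1 CPM in the erianin replicates, a log2 fold change of -0.53 (SE 0.09, adjusted p = 0.0127 from edgeR). Neither overlapped between groups. NCAPD2, a condensin subunit, had 381, 379 and 399 CPM in DMSO replicates 1, 2 and 3 and 304, 299.6 and 293 CPM in the erianin replicates, a log2 fold change of -0.37 (SE 0.06, adjusted p = 0.0113 from edgeR) that is under the fold threshold. ZWILCH, of the complex that brings dynein to kinetochores, was higher at a log2 fold change of 0.46 (SE 0.12, adjusted p = 0.0374 from edgeR), as was TACC3, a spindle protein, at 0.24 (SE 0.07, adjusted p = 0.0451 from edgeR). After the GC offset the log2 fold change of CDCA3 was -0.57 (SE 0.10, adjusted p = 0.00646 from edgeR) and that of ANAPC10 0.32 (SE 0.13, adjusted p = 0.115 from edgeR). Those of ZWILCH and TACC3 were 0.27 (SE 0.10, adjusted p = 0.0837 from edgeR) and 0.23 (SE 0.08, adjusted p = 0.0881 from edgeR), so that ANAPC10, ZWILCH and TACC3 no longer passed. Without DMSO replicate 3, 13 of the 86 were called higher and 0 lower by edgeR, against 11.4% and 6.11% of all tested genes. In that fit 31 (36.0%) were higher and 15 (17.4%) lower at an adjusted p under 0.05, against 27.5% and 27.7%. At an unadjusted p under 0.05 edgeR placed 34 higher and 18 lower, against 29.8% and 29.5%. With the GC offset added to that fit, 1 of the 86 was called higher and 2 lower, against 6.93% and 6.16%. At an adjusted p under 0.05, 12 of the 86 were then higher and 24 lower, against 15.9% and 33.3%. More of these genes were thus higher than lower without the offset, and more lower than higher with it. KNL1, HASPIN and PIMREG were listed at 0 in all 6 libraries; whether they were not expressed or not counted cannot be told from the table. No row was matched to RBL1 by its symbol, so it could not be tested.

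Of 32 DNA replication genes, 0 were called in either direction by edgeR, by DESeq2 or without DMSO replicate 3, while 5 were higher and 5 lower at an unadjusted p under 0.05 from edgeR with all 6 libraries, against 15.3% and 15.6% of all tested genes. MCM5, a subunit of the replicative helicase, had 155, 161 and 168 CPM in DMSO replicates 1, 2 and 3 and 133, 119 and 123 CPM in the erianin replicates, a log2 fold change of -0.37 (SE 0.07, adjusted p = 0.0183 from edgeR). CDC45, its cofactor, had a log2 fold change of -0.39 (SE 0.08, adjusted p = 0.0204 from edgeR). In the edgeR fit of all 6 libraries these 2 were lower at an adjusted p under 0.05 and 0 were higher. DESeq2 placed 2 higher and 3 lower, and edgeR without DMSO replicate 3 placed 7 higher and 9 lower, against 27.5% and 27.7% of all tested genes in the latter fit. CDC6, which loads the helicase, was at 0.37 (SE 0.11, adjusted p = 0.0610 from edgeR) and did not pass. The median log2 fold change of the 32 was -0.02.

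The cells carried the transcripts that their label implies in part. KRT8, KRT18 and VIM, the keratin and vimentin genes of a dedifferentiated carcinoma, ranged from 300 to 673 TPM over the 6 libraries, and PAX8, a thyroid lineage factor, from 105 to 150 TPM. By group, PAX8 had 142 to 150 TPM in DMSO and 105 to 107 TPM with erianin. VIM had 512 to 612 TPM in DMSO and 456 to 465 TPM with erianin, whereas KRT8 and KRT18 overlapped between the groups. TG, which encodes the thyroglobulin of the hormone-producing thyrocyte, was at most 0.0856 TPM, and TSHR and NKX2-1 were listed at 0. Of 5 markers of immune and endothelial cells, 4 were under 1 TPM in every library, PTPRC, CD3E, PECAM1 and VWF, while CD14 ranged from 1.83 to 5.35 TPM. Their summed level was 1.89 to 3.40 TPM in DMSO and 3.74 to 5.68 TPM with erianin, and its part in the results above was not tested.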

How the data were processed

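Libraries of CAL62 cells, 3 with 50 nM erianin and 3 with DMSO for 48 h, were analysed from 2 tables. The authors deposited read counts for each gene, without normalization, and TPM values of the same 6 libraries. The notes of the submitters name fastp 0.23.2, STAR 2.7.10, featureCounts 2.0.1, StringTie 2.2.1 and GRCh38; the annotation and the strand setting are not given in the sources used here, so overlapping genes may carry each other's reads. The labels state Illumina library protocols, and the study's methods name the BGISEQ-500 platform and DESeq2. The TPM columns reach between 59.1% (DMSO replicate 3) and 78.3% of their nominal total.

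Of 65807 rows, 26480 without an identifier, holding at most 0.00515% of a library's counts, were left out. Counts were tested with edgeR 4.0.16 (TMM, filterByExpr by group, quasi-likelihood) in R 4.3.3, and p-values were adjusted over all genes tested. SE is the log2 fold change divided by the root of the F statistic. GC content and length are those of the longest GENCODE 29 transcript, and the GC offset is a loess trend per library with a span of 0.5. The alternatives were DESeq2 1.42.0, RLE or upper-quartile factors, a filter of at least 10 counts in every library or none, limma 3.58.1 on log2(TPM + 1) or log2(TPM + 0.1) with a mean of at least 1 TPM or no filter, the GC offset, a replicate block, and each library left out. The steps were tested on simulated counts with 200 planted changes. With 6 libraries edgeR recovered 174 of them at an adjusted p under 0.05, and 11 unchanged genes passed. No simulated DMSO library departed from its group as DMSO replicate 3 did, so that situation was not tested.

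The genes, role groups, lists and tests were chosen with earlier results of these data known. All 44 genes could be named. Values in every library are given for the 2 genes with the highest mean TPM in each role and for those that passed with 6 libraries or were called without DMSO replicate 3; SPC25 and CENPF were added after their values were seen. From the other lists, the called genes and up to 4 with the smallest adjusted p were named. Groups of 3 are too small to test 1 library as an outlier. The study's protein, cell cycle and mouse data were not used. Tables were read with Python 3.11.15 and pandas 2.3.3 and drawn with matplotlib 3.10.9.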

Additional observations from a re-analysis of the deposited data

How the results depend on the processing

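At 25776301 to 34107727 reads per library PRC1 and CENPE rest on few counts. Libraries with the same replicate number did not deviate together from their group means (r = -0.00664, 0.00767 and -0.0494 for numbers 1 to 3). DMSO replicate 3 lay 52.5 and 52.8 from its group and shifts that group's mean, so these values cannot exclude a pairing. Under the replicate block 1 of the 44 mitotic genes was called higher (MAD2L1) and 1 was higher at an adjusted p under 0.05, and of the 86 tested genes of the further mitotic list (pathway genes) 0 were called higher and 0 lower; with the replicate block and GC offset 1 mitotic gene was called higher and 1 lower, 2 were lower at an adjusted p under 0.05, 0 pathway genes were called higher and 1 replication gene lower. Against 2 mitotic genes called higher and 0 lower, 3 higher and 0 lower at an adjusted p under 0.05, and 1 pathway gene called in each direction, DESeq2 called 1 mitotic gene lower and placed 2 lower at an adjusted p under 0.05. With the GC offset these were 1 called higher, 1 called lower and 3 lower at an adjusted p under 0.05, with 0 pathway genes called higher and 1 replication gene lower. With the GC offset and without DMSO replicate 3 they were 1, 1 and 10, with 13 mitotic genes higher and 2 pathway genes called lower, where the fit without DMSO replicate 3 alone called 7 mitotic genes higher and 0 lower. Upper-quartile factors called 2 pathway genes higher and 0 lower, and no low-count filter 0 higher. In limma fits of TPM (pseudocount 1, pseudocount 0.1, and pseudocount 1 with no filter), where the median of all genes moved by 0.18, 0.20 and 0.12, mitotic genes called higher were 5, 5 and 5, mitotic genes higher at an adjusted p under 0.05 were 9, 9 and 8, pathway genes called were 4, 5 and 4 higher and 0 lower, replication genes called higher were 2 in each, and the median log2 fold change of the mitotic genes was 0.29, 0.30 and 0.27. Leaving out 1 library at a time, mitotic genes called higher ranged from 1 to 7, mitotic genes at an adjusted p under 0.05 from 1 to 26 higher and from 0 to 6 lower, pathway genes called from 0 to 13 higher and from 0 to 1 lower, and the median log2 fold change of the mitotic genes from -0.05 to 0.22; except for pathway genes called lower, the upper ends came without DMSO replicate 3. Of the values of single mitotic genes under the alternatives, 757 kept their call status, 20 became calls, 11 lost one and no call reversed; of the 757, 68 crossed an adjusted p of 0.05 without a change of call, 23 of them without DMSO replicate 3 and 20 with the GC offset and without DMSO replicate 3, and 93 differed in sign. The TPM columns were not rescaled to an equal total before the limma fits. They reached 73.5%, 72.6% and 59.1% of their nominal total in DMSO replicates 1, 2 and 3. In the erianin replicates they reached 77.2%, 75.1% and 78.3%. The causes were not tested.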
